A study of Mus musculus with 20 samples.

Results

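The first 2 days of neural differentiation of TKO cells, a line of mouse embryonic stem cells, are described here: 2 RNA libraries of TKO cells at D2 against 2 libraries of TKO cells at D0, 4 of the 20 libraries of the series. The libraries were chosen by the genotype and day in their labels. TKO D2 cells had been replated on laminin in N2B27, a medium without serum or leukaemia inhibitory factor (LIF), for 2 days. TKO D0 cells were feeder-free stem cells on gelatin in medium with serum and LIF. The 2 WT D2 and 2 WT D0 libraries, from cells of the same line ES-E14TG2a handled in the same way, served to show where the step of the TKO cells differed from that of WT cells. The labels name the genotype only as TKO, without its genes, and say nothing of the number of clones behind it. Day, medium, coating and replating changed together between D0 and D2, and their parts in the step cannot be told apart. The labels call the 2 libraries of a group biological replicates. The p-values set a change against the spread within such pairs, estimated over all 10 groups and not from the compared pairs alone.

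Naive embryonic stem cells renew themselves under LIF, which acts through the receptor subunits Lifr and Il6st on the transcription factor Stat3, and through a network of factors such as Nanog, Esrrb, Klf4, Tfcp2l1 and Tbx3. When LIF and serum are withdrawn, Fgf4 made by the cells and the Erk kinases move them into a formative state, marked by Fgf5, Otx2, Pou3f1 and the de novo DNA methyltransferases Dnmt3a and Dnmt3b, from which neural, mesodermal and endodermal lineages or germ cells can be formed. In culture without serum, cells also have to make lipids that serum would supply, and the transcription factor Srebf2 is known to raise the genes of sterol synthesis when sterol in the cell is low.

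Between 26015282 and 31302341 estimated counts were held by each of the 4 TKO libraries, and 18555 genes were tested over all 20 libraries. Levels are CPM, counts per 1e+06 after TMM scaling, so they compare samples and not genes of different length. A gene is said to have risen, fallen or differed only where its adjusted p in the quasi-likelihood test of edgeR, by the method of Benjamini and Hochberg, was under 0.05, and errors of log2 fold changes are standard errors (SE) of that fit. Fold changes are of D2 over D0, and the difference of the steps is the log2 fold change in TKO minus that in WT. Statements that both D2 libraries lay on one side of both D0 libraries describe single genes, most of them past the threshold. They add no support to the test, and the share of all genes separated in this way is not given. Genes that share at least 10% of their 31-mers with transcripts of other genes are named as uncertain, because the counting divides reads between them. The pair of WT D0 libraries differed from each other more than the others did, with a chi-square of 27.2 per degree of freedom over genes with at least 10 counts, against 4.96 in TKO D2, 3.94 in TKO D0 and 4.29 in WT D2. In whole cultures, fewer cells of a type and less RNA per cell cannot be told apart.

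Dnmt1, the maintenance methyltransferase, had 80.9 and 78.6 CPM at TKO D2 and 74.8 and 82.5 CPM at TKO D0, against 478 and 484 CPM at WT D2 and 482 and 401 CPM at WT D0. Dnmt3a, a de novo methyltransferase, had 65.8 and 62.8 CPM at TKO D2 and 22.2 and 24.4 CPM at TKO D0, against 607 and 611 CPM at WT D2 and 104 and 93.5 CPM at WT D0. Dnmt3b, the other de novo enzyme, had 109.8 and 112 CPM at TKO D2 and 26.2 and 28.2 CPM at TKO D0, against 1448 and 1325 CPM at WT D2 and 76.7 and 89.7 CPM at WT D0, with 13.5% of its 31-mers shared. All 3 were lower in both TKO libraries than in both WT libraries at D2 and at D0. Dnmt3l, the cofactor of the de novo enzymes, went the other way, with 531 and 487 CPM at TKO D2 and 542 and 532 CPM at TKO D0, against 223 and 224 CPM at WT D2 and 142 and 186 CPM at WT D0. Within the TKO step, transcripts of Dnmt3a and Dnmt3b rose all the same, by 1.46 ± 0.076 and 2.03 ± 0.13 on the log2 scale (adjusted p = 5.12e-11 and 7.03e-10), by less than in the WT step, where they rose by 2.62 and 4.06. The difference of the steps was -1.16 ± 0.10 for Dnmt3a and -2.03 ± 0.17 for Dnmt3b (adjusted p = 1.36e-06 and 1.11e-06). Transcript levels do not show whether protein is made.

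Stem cell markers were high in the D0 libraries, as the label of the cells has it. The summed level of the 8 embryonic stem cell markers was 2264 and 1992 CPM at TKO D2, against 6279 and 6085 CPM at TKO D0. The 6 mesoderm markers summed to 6.82 and 6.82 CPM at TKO D2, against 6.16 and 6.26 CPM at TKO D0. The 9 markers of fibroblasts and feeder cells summed to 29.3 and 32.7 CPM, against 64.9 and 68.7 CPM, with Postn at 0 in both TKO D2 libraries. Endoderm markers were present in TKO at both days. The 8 markers summed to 333 and 444 CPM at TKO D2 and 358 and 397 CPM at TKO D0, against 29.9 and 33.4 CPM at WT D2 and 22.8 and 30.5 CPM at WT D0, where Afp and Ttr were at 0. The part of such cells in the results was not tested.

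From D0 to D2, 4937 genes rose (26.6% of those tested) and 5000 fell (26.9%) in TKO cells, 9937 or 53.6% in all. With at least a 2-fold change in addition, 3365 genes passed (18.1%), 1704 of them higher and 1661 lower. Changes of at least 4 on the log2 scale were seen for 166 genes that rose and 92 that fell. In WT cells, 4794 genes rose (25.8%) and 5360 fell (28.9%), 54.7% in all. Both steps called 7146 genes in the same direction, which is 71.9% of the TKO calls and 70.4% of the WT calls, and 272 genes in opposite directions. The median log2 fold change over all genes was 0 in the TKO step and -0.035 in the WT step.

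The steps themselves differed for 3421 genes (18.4%), 1800 of them higher (9.7%) and 1621 lower (8.74%) in TKO, and for 1104 (5.95%) with at least a 2-fold difference in addition. The TKO and WT steps share no library. Among the 7146 genes that moved in the same direction in both, 1358 differed in size, 936 with a smaller and 422 with a larger step in TKO. A further 749 genes changed in TKO and did not pass in WT, and 1010 changed in WT and did not pass in TKO, with the steps differing. The count of 3421 was 2215 without TKO D0 replicate 1, 2253 without TKO D2 replicate 2 and 2122 without WT D2 replicate 2. Without WT D0 replicate 1 it was 3894 and without WT D0 replicate 2 it was 3220. A range in brackets after a count of list members is the lowest and highest count with 1 library of the compared groups left out. It is given, outside the lysosome and autophagy list, where it moved the count by more than 1.5-fold. Counts of list members are to be read beside the shares of all genes. These were 26.6% up and 26.9% down in the TKO step, and 9.7% higher and 8.74% lower in the difference of the steps.

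**Figure D1:**
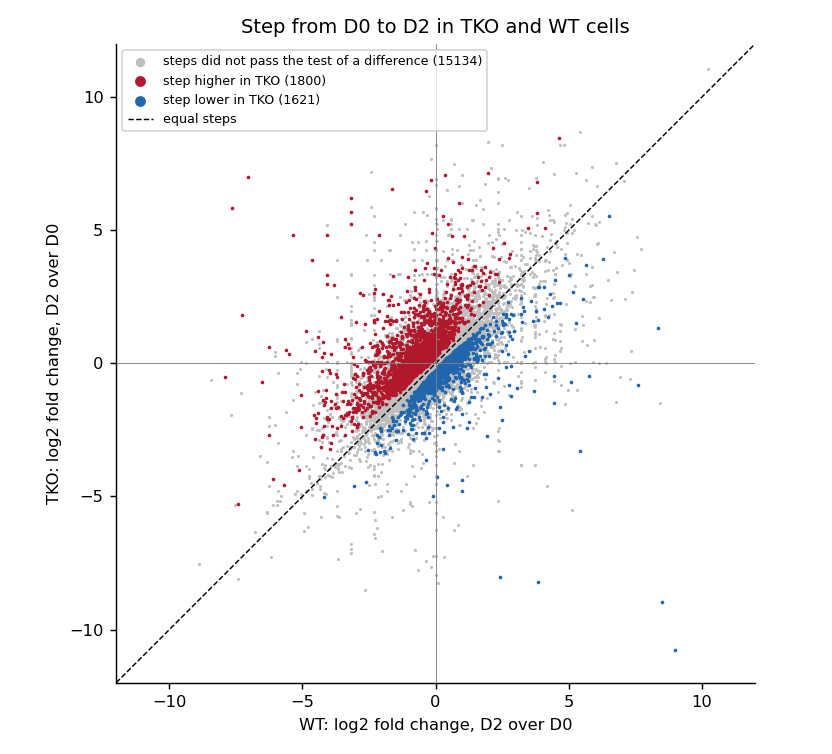
Log2 fold change of D2 over D0 in WT cells (x axis) and in TKO cells (y axis) for the 18555 tested genes, 1 point per gene, with the 3421 genes whose steps differed in colour. Most points lie along the diagonal of equal steps, and the coloured genes lie off it on both sides, 1800 above and 1621 below.

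Of the whole DNA methylation machinery list, 8 of 23 tested genes rose and 6 fell, beside 26.6% and 26.9% of all genes. Tet1 and Tet2, which oxidise 5-methylcytosine, both fell: Tet1 had 269 and 317 CPM at TKO D2, against 747 and 827 CPM at TKO D0, and Tet2 had 37.1 and 39.1 CPM, against 229 and 262 CPM. Their log2 fold changes of -1.43 ± 0.079 and -2.69 ± 0.10 were further below 0 than the -0.65 and -2.202 of the WT step, with differences of -0.78 and -0.49 (adjusted p = 1.34e-04 and 0.0235). For Tet2 the difference did not pass without TKO D0 replicate 2, TKO D2 replicate 1, TKO D2 replicate 2, WT D0 replicate 1 or WT D2 replicate 2 (adjusted p between 0.0512 and 0.122) and with counts from length-scaled TPM (adjusted p = 0.187). Tet3, the third enzyme of the family, rose by 0.39 ± 0.15, a call lost without TKO D0 replicate 1, TKO D0 replicate 2, TKO D2 replicate 1 or TKO D2 replicate 2 (adjusted p between 0.0506 and 0.228). Gadd45g, a stress-inducible gene on the same list, rose to 84.4 and 78.6 CPM at TKO D2, against 6.79 and 5.71 CPM at TKO D0, a log2 fold change of 3.703 that was smaller than the 5.64 of WT cells (difference -1.94, adjusted p = 2.58e-05). Its level at WT D0 was 1.75 and 1.23 CPM, under that of both TKO D0 libraries. In the list as a whole the steps differed for 3 genes towards higher and 7 towards lower values in TKO.

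Naive pluripotency factors fell almost as a block. Of the 21 tested genes, 20 fell and 1 rose, with a median log2 fold change of -2.297, beside a median of 0 over all genes. Klf4, a Krueppel-like factor of the naive network, had 18.9 and 17.8 CPM at TKO D2, against 424 and 447 CPM at TKO D0. Tfcp2l1, which holds the naive state downstream of Stat3, had 17.2 and 16.6 CPM, against 302 and 325 CPM. Tbx3, a T-box repressor of differentiation, had 4.903 and 4.85 CPM, against 77.7 and 77.8 CPM. The D2 libraries lay far below the D0 libraries in each case, with log2 fold changes of -4.57 ± 0.11, -4.21 ± 0.14 and -3.99 ± 0.18 (adjusted p = 1.15e-14, 4.66e-13 and 1.10e-11). Esrrb, an orphan nuclear receptor, had 64.9 and 52.5 CPM at TKO D2, against 918 and 919 CPM at TKO D0, a log2 fold change of -3.97 ± 0.19. Prdm14, which restrains Fgf signalling and the de novo methyltransferases, had 2.16 and 1.64 CPM, against 27.4 and 26.2 CPM, a log2 fold change of -3.81 ± 0.16. Nanog had 61.4 and 52.1 CPM, against 451 and 435 CPM (-2.96 ± 0.18, with 10.4% of its 31-mers shared). No D2 value of these 6 genes reached a D0 value, which changes of this size imply and which adds no support.

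Other naive genes fell by less. Zfp42, known as Rex1 and widely used as a naive marker, had 229 and 199 CPM at TKO D2, against 996 and 923 CPM at TKO D0 (-2.16 ± 0.18 on the log2 scale), and 13.4% of its 31-mers are shared. Klf2 had 244 and 229 CPM, against 589 and 580.1 CPM (-1.31 ± 0.15). The lowest D0 library stood above the highest D2 library for both. In the difference of the steps, 2 (range 1 to 2) naive genes were higher and 6 lower in TKO. Klf4 and Tbx3 fell by less than in WT, with differences of 1.15 ± 0.15 and 1.15 ± 0.28 (adjusted p = 8.21e-05 and 0.00782), and Tbx3 did not pass without WT D2 replicate 1 (adjusted p = 0.05) and with counts from length-scaled TPM (adjusted p = 0.198). In WT, Klf4 had 11.3 and 11.3 CPM at D2 and 531 and 653 CPM at D0, and Tbx3 had 2.401 and 3.26 CPM at D2 and 89.998 and 113 CPM at D0. Dppa5a, an RNA-binding protein gene of naive cells with 57.2% shared 31-mers, differed the other way, with log2 fold changes of -2.31 in TKO and -0.92 in WT (difference -1.396 ± 0.28, adjusted p = 0.00216).

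Pou5f1, the Oct4 factor shared by naive and formative cells, had 1168 and 1029 CPM at TKO D2, against 1326 and 1294 CPM at TKO D0, and did not pass the test (-0.25 ± 0.21, adjusted p = 0.323). It passed in edgeR with no filter on low counts (adjusted p = 0.00015) and in a fit of the compared groups alone (adjusted p = 0.00267). Sox2, its partner factor, fell to 229 and 213 CPM at TKO D2, against 546 and 540.5 CPM at TKO D0 (-1.29 ± 0.059, adjusted p = 1.03e-11). Of the 15 core genes, 2 rose and 5 fell. Tdgf1, the Nodal co-receptor Cripto, fell most, to 117 and 103 CPM at TKO D2, against 834 and 838 CPM at TKO D0 (12.6% of its 31-mers are shared). Lin28a, an RNA-binding protein that blocks let-7 maturation, rose to 817 and 812 CPM, against 299.7 and 304 CPM (1.43 ± 0.10). Against the WT step, 4 (range 1 to 6) core genes differed, all lower in TKO. Foxd3, a forkhead factor of pluripotent cells, stood first among them, at 34.4 and 31.3 CPM at TKO D2 and 43.9 and 44.3 CPM at TKO D0, against 44.6 and 47.9 CPM at WT D2 and 18.2 and 22.998 CPM at WT D0 (difference -1.59 ± 0.21, adjusted p = 8.42e-05). It fell in TKO, at -0.42, and had a log2 fold change of 1.17 in WT. The fall in TKO did not pass without TKO D0 replicate 1, TKO D0 replicate 2 or TKO D2 replicate 2 (adjusted p between 0.0752 and 0.13).

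**Figure D2:**
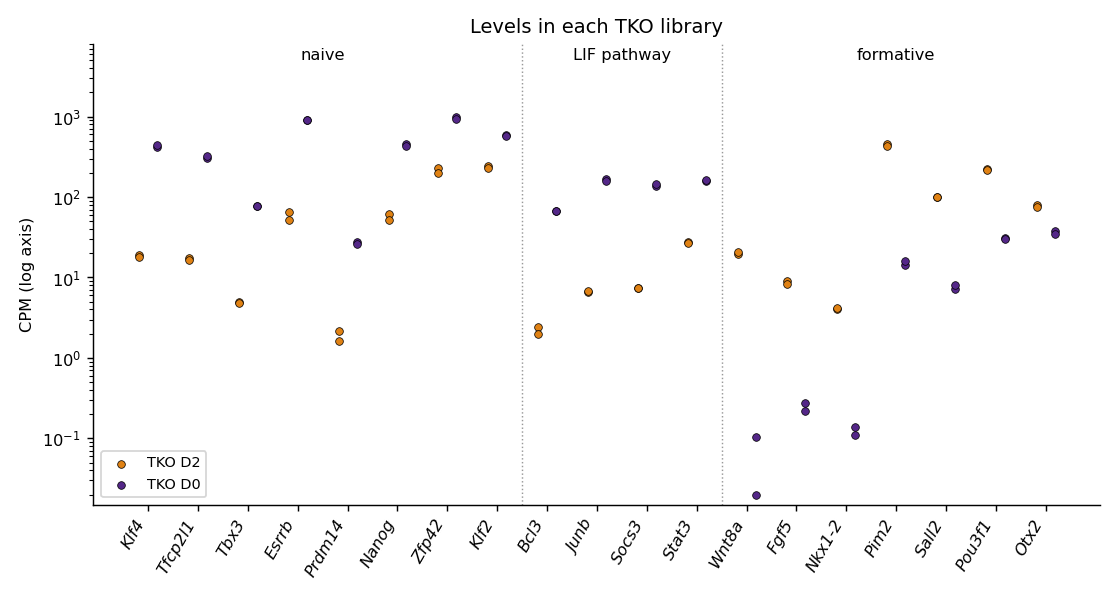
CPM on a log axis of naive, LIF pathway and formative genes in each library, with TKO D2 in the left and TKO D0 in the right position of each gene and 1 point per library (2 per group), where the Wnt8a library at 0 is drawn near the foot of the axis. The naive and LIF pathway genes stand lower at D2, the formative genes stand higher at D2, and the 2 libraries of a group lie close together.

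Genes of the LIF and Stat3 pathway fell. Of 18 tested genes, 14 fell and 1 (range 0 to 1) rose, with a median of -1.303. Bcl3, an atypical inhibitor of kappa B that Stat3 induces, had 2.400 and 2.004 CPM at TKO D2, against 66.6 and 66.99 CPM at TKO D0. Junb, an AP-1 subunit, had 6.65 and 6.82 CPM, against 170.0 and 158 CPM. Socs3, the feedback inhibitor of the LIF receptor, had 7.41 and 7.497 CPM, against 138 and 144 CPM. Their log2 fold changes were -4.91 ± 0.18, -4.61 ± 0.13 and -4.24 ± 0.13, with both D2 libraries well under both D0 libraries. Osmr, the oncostatin M receptor, was rare, with 0.2400 and 0.0401 CPM at TKO D2, against 0.906 and 1.24 CPM at TKO D0. Stat3 itself fell to 27.4 and 26.8 CPM, against 160.1 and 164 CPM (-2.58 ± 0.11, adjusted p = 3.50e-12). The pathway moved much as in WT cells, where 16 fell and 2 rose, and the steps differed for 2 (range 1 to 2) genes higher and 2 (range 1 to 2) lower in TKO. Myc, a Stat3 target and growth regulator, was one of the lower ones, with log2 fold changes of 0.042 ± 0.12 in TKO, which did not pass, and 0.96 in WT. Its level at TKO D0 was already 33.1 and 33.5 CPM, against 16.8 and 17.5 CPM at WT D0.

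Formative genes rose. Of 27 tested genes, 19 rose and the other 8 did not pass, with a median of 1.17. Wnt8a, a Wnt ligand of the formative epiblast, had 19.9 and 20.5 CPM at TKO D2, against 0.104 and 0 CPM at TKO D0, where the 2 libraries held 3 counts in all. The ratio of counts was 376 with a 95% counting interval of 128 to 1827, which covers counting error only. Fgf5, the classic marker of the formative and primed epiblast, had 9.05 and 8.34 CPM, against 0.279 and 0.2196 CPM (5.100 ± 0.33, adjusted p = 9.18e-10). Both D2 libraries stood above both D0 libraries, and the D0 values were near 0. Nkx1-2, a homeobox gene of the caudal epiblast, had 4.11 and 4.21 CPM, against 0.139 and 0.1098 CPM. Pim2, a kinase gene, had 463 and 429.8 CPM, against 14.2 and 16.2 CPM (4.88 ± 0.15). Sall2, a zinc finger factor, had 101 and 99.8 CPM, against 7.11 and 8.16 CPM (3.72 ± 0.091). Every one of these genes was higher in both D2 libraries.

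Among the transcription factors of the formative state, Pou3f1, known as Oct6, had 226 and 216 CPM at TKO D2, against 30.998 and 30.2 CPM at TKO D0 (2.85 ± 0.12). Otx2, which directs Pou5f1 to formative enhancers, had 79.9 and 74.5 CPM, against 37.4 and 34.7 CPM (1.099 ± 0.14). Both rose with no overlap of the groups. Compared with WT, 3 (range 0 to 3) formative genes had a higher and 9 a lower step in TKO. Sox3, a factor of epiblast and neural plate, had 67.5 and 67.3 CPM at TKO D2 and 19.7 and 20.4 CPM at TKO D0, against 62.9 and 60.04 CPM at WT D2 and 3.73 and 2.79 CPM at WT D0. Lef1, a transcription factor of the Wnt pathway, had 106 and 99.5 CPM at TKO D2 and 30.998 and 34.7 CPM at TKO D0, against 125 and 117 CPM at WT D2 and 11.7 and 4.91 CPM at WT D0. For both genes the genotypes were close to each other at D2, while both TKO libraries were higher than both WT libraries at D0. Their differences of the steps were -2.49 ± 0.12 and -2.22 ± 0.28 (adjusted p = 5.21e-09 and 4.37e-05), and that of Pou3f1 was -1.22 ± 0.18 (adjusted p = 1.77e-04), with 10.3 and 10.6 CPM at WT D0. Wnt8a and Fgf5 differed the other way, by 3.82 ± 1.18 and 1.64 ± 0.50 (adjusted p = 0.0316 and 0.0299). Fgf5 had 12.9 and 8.91 CPM at WT D2, against 0.925 and 1.04 CPM at WT D0. The genotypes thus overlapped for Fgf5 at D2, while both TKO libraries were lower than both WT libraries at D0. Wnt8a reached 5.58 and 4.31 CPM at WT D2, against 0.0638 and 0.325 CPM at WT D0. Its difference did not pass without TKO D0 replicate 2, TKO D2 replicate 2, WT D0 replicate 2 or WT D2 replicate 2 (adjusted p between 0.0522 and 0.518), with values between 2.28 without WT D0 replicate 2 and 7.67 without TKO D0 replicate 1, and that of Fgf5 did not pass without TKO D0 replicate 1, TKO D0 replicate 2, TKO D2 replicate 1, WT D0 replicate 2 or WT D2 replicate 2 (adjusted p between 0.0567 and 0.126). Without WT D0 replicate 1 the difference of Lef1 was -2.97.

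Targets and members of the Bmp pathway fell, 14 of 24, while 4 rose. Bmp4, a ligand that serum and Id genes link to self-renewal, had 3.600 and 2.49 CPM at TKO D2, against 68.5 and 68.9 CPM at TKO D0 (-4.48 ± 0.18, adjusted p = 2.87e-12). Smad7, an inhibitory Smad and feedback target, had 7.34 and 8.26 CPM, against 102 and 112 CPM (-3.78 ± 0.14). Both were lower in each D2 library. Atoh8, a basic helix-loop-helix gene, was close to the detection limit, with 0.343 and 0.641 CPM at TKO D2, against 0.0697 and 0 CPM at TKO D0 and 2 counts in the 2 D0 libraries. The Id genes, which block basic helix-loop-helix factors, did not move alike: Id1 fell to 4.32 and 3.65 CPM, against 25.8 and 25.95 CPM, and Id3 fell to 5.25 and 4.49 CPM, against 27.1 and 25.99 CPM. Id2 rose to 30.1 and 30.5 CPM at TKO D2, against 16.9 and 17.4 CPM at TKO D0. Of the 6 pathway genes whose steps differed, all were higher in TKO, led by Id4 (-2.36 in TKO and -3.899 in WT, difference 1.54 ± 0.26), Id2 (1.33 ± 0.13) and Id1 (1.18 ± 0.17), with adjusted p = 6.38e-04, 3.56e-06 and 2.19e-04.

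Nodal, a ligand of the Tgfb family, keeps the epiblast pluripotent and patterns mesoderm and endoderm. Of its pathway, 11 of 20 genes fell and 5 (range 3 to 4) rose. Lefty2, a secreted Nodal inhibitor and target, had 6.21 and 5.97 CPM at TKO D2, against 224 and 249 CPM at TKO D0 (-5.27 ± 0.26). Lefty1, a second such inhibitor, had 13.3 and 12.4 CPM, against 79.7 and 88.6 CPM (-2.71 ± 0.30). Lefty2 and Lefty1 share 18.2% and 25.7% of their 31-mers with other transcripts and are uncertain for that reason. Lefty1 fell by far less than in WT, where it had 2.401 and 3.38 CPM at D2 and 279.9 and 169.7 CPM at D0, and the difference of the steps was 3.55 ± 0.48 (adjusted p = 1.07e-04). Cfc1, the Nodal co-receptor Cryptic, rose to 0.686 and 1.12 CPM at TKO D2, against 0.244 and 0.1098 CPM at TKO D0, a call lost without TKO D0 replicate 2 or TKO D2 replicate 2 (adjusted p between 0.0731 and 0.0909). All 6 (range 3 to 6) genes of the pathway whose steps differed were higher in TKO.

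Of the Fgf and Mapk pathway, 7 of 26 genes rose and 14 fell. Next to Fgf5, the largest change was that of Spry4, a feedback inhibitor of Erk signalling, which had 37.3 and 35.9 CPM at TKO D2, against 189.9 and 194 CPM at TKO D0 (-2.39 ± 0.094). Fgfr2, a receptor, rose to 48.96 and 50.8 CPM, against 14.001 and 14.3 CPM (1.81 ± 0.086). Il17rd, another feedback inhibitor of Fgf signalling known as Sef, fell to 31.3 and 31.4 CPM, against 94.5 and 103 CPM. This receptor and these feedback inhibitors moved in opposite directions, without overlap between D2 and D0. The steps differed for 6 (range 1 to 7) genes higher and 2 (range 1 to 3) lower in TKO. Fgf8, a ligand of the streak, was first among them at low levels, with 0.926 and 0.401 CPM at TKO D2 and 0.662 and 0.659 CPM at TKO D0, against 0.0387 and 0.204 CPM at WT D2 and 0.734 and 0.6497 CPM at WT D0 (difference 2.39 ± 0.75, adjusted p = 0.0347). It did not pass without TKO D0 replicate 1, TKO D0 replicate 2, TKO D2 replicate 1, WT D0 replicate 1 or WT D2 replicate 1 (adjusted p between 0.0633 and 0.219) and in a fit of the compared groups alone (adjusted p = 0.0811), and was 1.65 without TKO D2 replicate 1 and 4.07 without WT D2 replicate 2.

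Of 32 Wnt pathway genes 11 rose and 9 fell, beside 26.6% and 26.9% of all genes. After Wnt8a, Wnt3, a ligand of the primitive streak, showed the largest fitted change from very few reads: 0.549 and 0.521 CPM at TKO D2, against 0 CPM in both libraries at TKO D0, a level at least 10.01-fold higher against a floor of 3 counts over the D0 group. In WT, Wnt3 had 0.697 and 0.757 CPM at D2 and 0.765 and 0.357 CPM at D0. Sp5, a direct target of the pathway, fell to 1.097 and 1.12 CPM at TKO D2, against 13.9 and 13.2 CPM at TKO D0 (-3.61 ± 0.34), and the receptor gene Fzd5 fell to 44.8 and 45.1 CPM, against 224 and 235 CPM (-2.35 ± 0.10). The pathway list held 6 (range 2 to 5) genes with a higher and 6 with a lower step in TKO. Wnt7b, a neural and epithelial ligand, was the third in size after Wnt3 and Wnt8a, at 1.54 and 1.16 CPM at TKO D2 and 0.488 and 0.769 CPM at TKO D0, against 0.426 and 0.408 CPM at WT D2 and 1.82 and 2.27 CPM at WT D0 (difference 3.41 ± 0.50, adjusted p = 2.11e-04).

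Notch pathway genes rose in 10 and fell in 7 of 22 cases. Heyl, a Notch target, had 0.171 and 0.1604 CPM at TKO D2, against 0 CPM in both libraries at TKO D0, at least 3.11-fold higher against the floor of 3 counts. Notch4, a receptor best known from endothelium, had 0.754 and 0.962 CPM, against 33.2 and 35.8 CPM (-5.33 ± 0.23, adjusted p = 4.95e-12). Hes3, a repressor of the early neural plate, had 11.5 and 11.4 CPM, against 0.383 and 0.256 CPM (5.14 ± 0.32, adjusted p = 4.62e-10). Notch4 fell while Heyl and Hes3 rose, and none of these groups overlapped. The ligands Dll4 and Dll1 both rose, Dll4 to 4.08 and 4.69 CPM, against 0.174 and 0.1098 CPM, and Dll1 to 67.99 and 70.7 CPM, against 7.11 and 6.96 CPM. For 10 Notch genes the step was higher, and for 1 (range 1 to 2) lower, in TKO than in WT. Lfng, a glycosyltransferase that tunes Notch receptors, and Dll3, a ligand that acts inside the cell, led these with differences of 2.101 ± 0.20 and 1.96 ± 0.20 (adjusted p = 2.68e-06 and 6.54e-06). Lfng had 15.2 and 14.6 CPM at TKO D2 and 2.47 and 2.93 CPM at TKO D0, against 9.41 and 7.72 CPM at WT D2 and 6.03 and 7.18 CPM at WT D0.

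In the retinoic acid pathway, 14 of 22 genes rose and 4 fell. Rxrg, a retinoid X receptor, had 7.200 and 6.69 CPM at TKO D2, against 0.279 and 0.329 CPM at TKO D0 (4.499 ± 0.26). Aldh1a1, a retinaldehyde dehydrogenase, was detected at 0.617 and 0.842 CPM, against 0 and 0.0732 CPM. Crabp2, the carrier of retinoic acid into the nucleus, had 37.5 and 36.8 CPM, against 2.58 and 2.23 CPM (3.95 ± 0.18). These genes were higher in both D2 libraries. Cyp26a1, the enzyme that degrades retinoic acid, moved in opposite directions in the genotypes. It had 4.56 and 4.81 CPM at TKO D2 and 19.9 and 20.7 CPM at TKO D0, against 4.42 and 3.46 CPM at WT D2 and 0.542 and 0.845 CPM at WT D0. Its log2 fold change was -2.11 ± 0.23 in TKO and 2.49 ± 0.32 in WT, and the difference of -4.605 ± 0.39 (adjusted p = 9.89e-07) was the lowest among the genes named by rule for the difference. Stra8, a retinoic acid target of germ cells entering meiosis, moved in the reverse sense, with 7.303 and 6.94 CPM at TKO D2 and 1.64 and 1.098 CPM at TKO D0, against 1.78 and 1.69 CPM at WT D2 and 6.41 and 5.26 CPM at WT D0 (difference 4.12 ± 0.43, adjusted p = 1.80e-05). In the Shh pathway 6 of 13 genes were higher and 2 lower, led by Hhip, the Hedgehog-binding inhibitor (1.22 ± 0.36 in TKO, -0.56 in WT), which did not pass without TKO D0 replicate 2 (adjusted p = 0.0584). A higher step in TKO was found for 6 (range 3 to 5) retinoic acid and 3 Shh pathway genes, and a lower one for 2 and 1.

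Immediate early and contractile genes changed in both directions, 11 up and 13 down of 30 serum response and Yap target genes. Ankrd1, a target of Yap and of serum response factor, had 0.583 and 0.601 CPM at TKO D2, against 10.7 and 9.88 CPM at TKO D0. Fos, an immediate early AP-1 subunit, had 14.8 and 16.4 CPM, against 150.3 and 143 CPM (-3.23 ± 0.26). Egr1, an immediate early zinc finger factor, had 52.3 and 65.9 CPM, against 499 and 483 CPM (-3.06 ± 0.23). All 3 were lower at D2. Myl9, a myosin light chain of contractile cells, rose instead to 31.8 and 30.1 CPM, against 3.52 and 3.66 CPM (3.11 ± 0.20). In TKO 4 members had a higher and 7 a lower step than in WT, with Acta2, smooth muscle actin, first at 8.06 and 8.74 CPM at TKO D2 and 3.27 and 3.92 CPM at TKO D0, against 4.65 and 3.09 CPM at WT D2 and 6.697 and 5.23 CPM at WT D0 (difference 1.88 ± 0.33, adjusted p = 9.11e-04).

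Sterol synthesis and uptake rose as a group. Of 30 tested genes, 26 rose and 3 fell, with a median of 1.595, and in WT 26 rose and 4 fell with a median of 1.46. Hmgcs1, which makes the substrate of HMG-CoA reductase, had 699 and 718 CPM at TKO D2, against 131 and 135 CPM at TKO D0 (2.41 ± 0.17, adjusted p = 2.82e-09). Msmo1, a demethylating oxidase of the later sterol steps, had 299 and 307 CPM, against 68.2 and 61.8 CPM (2.22 ± 0.15). The D2 libraries were several times higher than the D0 libraries, with little spread within a pair. Idi1, the isomerase of isopentenyl diphosphate, and Fdps, farnesyl diphosphate synthase, had log2 fold changes of 2.51 ± 0.13 and 2.33 ± 0.14, but share 18.8% and 27.9% of their 31-mers. Steps differed from WT for 2 (range 2 to 5) genes, Npc1 and Lss. Npc1, which moves cholesterol out of the lysosome, fell by less in TKO (-0.50 against -1.26 in WT, adjusted p = 0.00344), and Lss, lanosterol synthase, rose by more (2.196 against 1.62 in WT, adjusted p = 0.0136). The call for the difference of Lss was lost without TKO D0 replicate 1 or WT D2 replicate 2, where the difference was 0.51 and 0.53.

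The promoters of 4 of these genes are printed because Srebf2 is known to act with the CCAAT-binding factor NF-Y at sterol genes. They are taken from RefSeq promoter windows of build GRCm38.p6, which run from 250 bases before to 50 bases after a start, and only stretches outside the GENCODE M21 gene are shown, on the strand of the gene, 5′ to 3′. Capitals mark CCAAT, or ATTGG for CCAAT on the other strand, and in Hmgcs1 also TCACCCCAC, a match to the sterol element TCACNCCAC.
Hmgcs1 (chr13:119690161-119690320, plus strand): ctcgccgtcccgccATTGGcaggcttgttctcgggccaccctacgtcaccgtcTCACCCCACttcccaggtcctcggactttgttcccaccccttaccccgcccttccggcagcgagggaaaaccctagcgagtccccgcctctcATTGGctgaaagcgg
Hsd17b7 (chr1:169969266-169969375, minus strand): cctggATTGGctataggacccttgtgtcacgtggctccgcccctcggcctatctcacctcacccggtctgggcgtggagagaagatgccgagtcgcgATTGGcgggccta
Mvd (chr8:122443423-122443492, minus strand): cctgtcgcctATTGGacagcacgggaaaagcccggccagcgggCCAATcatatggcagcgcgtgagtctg
Lss (chr10:76531520-76531588, plus strand): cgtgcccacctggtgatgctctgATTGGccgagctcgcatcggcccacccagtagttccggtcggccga
Searched on both strands, CCAAT was in a window of 19 of the 21 listed sterol genes that had one, beside 41.1% of all genes with a window (37.4% of 32851 windows). TCACNCCAC was in 1 of them, Hmgcs1, beside 1.44% of all genes. The motifs do not overlap in the printed stretches. A match describes these letters and is no measured site. Hsd17b7, a reductase of sterol synthesis, had 42.2 and 45.7 CPM at TKO D2, against 9.93 and 12.01 CPM at TKO D0 (2.004 ± 0.12). Mvd, mevalonate diphosphate decarboxylase, had 118 and 106 CPM, against 29.8 and 29.3 CPM (1.92 ± 0.14), and Lss had 227 and 226 CPM, against 47.02 and 51.9 CPM (2.196 ± 0.11). Hsd17b7 and Mvd were named for their promoters after their values were seen.

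**Figure D3:**
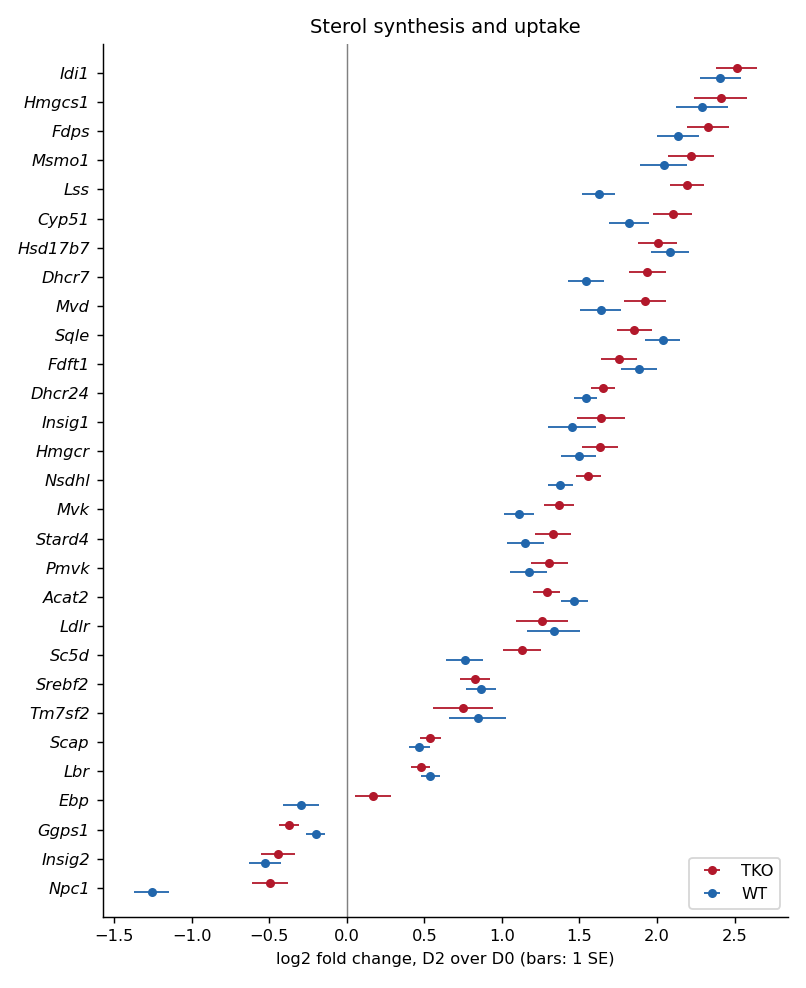
Log2 fold change of D2 over D0 for genes of sterol synthesis and uptake, in TKO (upper marker) and WT (lower marker), with bars of 1 SE of the fit over 2 libraries per group. Of the 29 genes drawn, 25 lie right of 0 and past the threshold in TKO and 25 in WT, and the 2 markers of a gene lie close together for most genes.

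Fatty acid synthesis rose in 13 and fell in 3 of 20 genes. Scd1, the desaturase that makes oleate, had 200.4 and 205 CPM at TKO D2, against 21.6 and 21.4 CPM at TKO D0 (3.24 ± 0.12, adjusted p = 1.03e-12), and rose by more than in WT (2.01, difference 1.22 ± 0.16, adjusted p = 7.50e-05). Fads2, which desaturates polyunsaturated fatty acids, had 182 and 170.3 CPM, against 26.7 and 28.2 CPM, and Acsl4, which activates arachidonate, had 175 and 200.0 CPM, against 34.2 and 33.3 CPM. D2 was above D0 in both libraries for all 3. Glycolysis and hypoxia genes went down, with 23 of 33 lower and 2 higher and a median of -0.97. Egln3, a prolyl hydroxylase that Hif1a induces, had 12.9 and 14.2 CPM at TKO D2, against 73.6 and 86.02 CPM at TKO D0 (-2.56 ± 0.38). Bnip3, a mitophagy receptor, fell by 2.27 ± 0.35 (20.3% shared 31-mers), and Pfkp, the platelet form of phosphofructokinase, fell to 194 and 202 CPM, against 854 and 895 CPM (-2.14 ± 0.16). In WT 22 genes of the glycolysis list fell and 2 rose. The step in TKO was higher than in WT for 2 (range 2 to 5) fatty acid and 3 (range 1 to 8) glycolysis genes and lower for 2 (range 1 to 5) and 3 (range 0 to 17). In the glycolysis list the 3 lower genes became 17 without WT D0 replicate 1 and 2 without WT D0 replicate 2. Egln3 had a difference of 0.03, which did not pass, and of -1.31 without WT D0 replicate 1 and 0.71 without WT D0 replicate 2, which passed in opposite directions.

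Oxidative phosphorylation differed between the genotypes in a small but broad way. Of 38 nuclear genes of the respiratory chain and ATP synthase, 12 (range 5 to 12) rose and 7 (range 2 to 9) fell in TKO with a median of 0.032, while 26 rose and the other 12 did not pass in WT, with a median of 0.34. The steps differed for 20 of them, all lower in TKO, with a median difference of -0.30, beside 0.0025 over all genes. Cox7a2, a subunit of complex IV, had 90.3 and 79.6 CPM at TKO D2 and 84.8 and 75.9 CPM at TKO D0, against 93.2 and 107 CPM at WT D2 and 63.3 and 43.3 CPM at WT D0 (difference -0.83 ± 0.17, adjusted p = 0.00313). Uqcrq, a subunit of complex III, had 124 and 116 CPM at TKO D2 and 97.03 and 88.1 CPM at TKO D0, against 117 and 122 CPM at WT D2 and 46.9 and 63.1 CPM at WT D0 (difference -0.75 ± 0.16, adjusted p = 0.00296). For both genes the 2 D2 groups were close and WT D0 was the lowest group. Cycs, cytochrome c, had the largest step in TKO at 0.71 ± 0.094 (29.2% shared). The count of 20 rests on the less even WT D0 pair as well: it was 20 without WT D0 replicate 1 and 10 without WT D0 replicate 2, and between 6 and 21 over all 8 libraries left out in turn. Of the 13 genes of the mitochondrial genome, 8 fell and 5 did not pass, mt-Co3 most at -0.77 ± 0.099, although its 31-mers are shared with other transcripts (99.9%). Between the steps 1 (range 0 to 6) of these differed, lower in TKO.

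Lysosome and autophagy genes fell almost without exception, 27 of 29, with 1 higher and a median of -0.75. Gla, a galactosidase gene, had few counts that varied between libraries: 0 CPM in both libraries at TKO D2 and 1.57 and 0.805 CPM at TKO D0, against 0 and 2.300 CPM at WT D2 and 0.159 and 0 CPM at WT D0. In TKO it was at least 21.6-fold lower at D2, against the floor of 3 counts over the group, and its call was lost without TKO D0 replicate 1, TKO D0 replicate 2, TKO D2 replicate 1 or TKO D2 replicate 2 (adjusted p between 0.0501 and 0.146). Tfeb, the master transcription factor of lysosome genes, had 9.26 and 7.898 CPM at TKO D2, against 42.6 and 41.7 CPM at TKO D0 (-2.29 ± 0.12, adjusted p = 4.24e-11). Ulk1, the kinase that starts autophagy, had 66.03 and 64.5 CPM, against 306 and 327 CPM (-2.28 ± 0.081). Glb1 and Hexa, hydrolases of glycolipids, had log2 fold changes of -1.76 ± 0.09 and -1.76 ± 0.16. The fall was smaller than in WT for many of them: the steps differed for 16 genes higher and 1 lower in TKO, and the WT median was -1.11. Gaa, the lysosomal glucosidase, had 34.2 and 40.1 CPM at TKO D2 and 65.7 and 66.5 CPM at TKO D0, against 32.6 and 34.97 CPM at WT D2 and 143 and 173 CPM at WT D0, with a difference of 1.39 ± 0.14 (adjusted p = 5.71e-06). The count of 16 was lower with any 1 library of the compared groups left out. In some of these fits, that without WT D0 replicate 2 among them, it was lower by more than 1.5-fold.

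Cell growth genes rose. Of 35 proliferation and cell cycle genes, 23 rose and 7 fell. The largest changes were in inhibitors, with Cdkn1c at 38.2 and 35.2 CPM at TKO D2, against 9.79 and 9.77 CPM at TKO D0 (1.91 ± 0.11), and Cdkn2b at 9.02 and 7.898 CPM, against 2.37 and 2.16 CPM (1.900 ± 0.17). Ccnd1, cyclin D1, which drives entry into S phase, had 241 and 221 CPM, against 85.3 and 86.4 CPM (1.43 ± 0.077). All 3 were higher in both D2 libraries. Set against WT, 3 (range 0 to 2) members had a higher and 12 (range 6 to 11) a lower step. Ccnd2, cyclin D2, came first: its log2 fold change was 0.14 ± 0.12 in TKO, which did not pass, and 1.73 in WT (difference -1.59 ± 0.17, adjusted p = 1.19e-05), and its D0 level was 21.3 and 23.1 CPM in TKO, against 8.52 and 10.7 CPM in WT. Ribosome biogenesis and Myc genes rose in 21 and fell in 1 (range 0 to 1) of 26 cases, by small amounts with a median of 0.47. Mycl, a Myc family member, led them with 31.9 and 29.7 CPM at TKO D2, against 16.9 and 17.1 CPM at TKO D0, followed by Pa2g4, a growth regulator that binds ribosomes, at 758 and 687 CPM, against 411 and 409 CPM. Of 23 p53 targets, 13 rose and 3 fell, with Perp, a desmosomal p53 target, at 0.77 ± 0.15 in TKO and -0.77 in WT (difference 1.54 ± 0.20, adjusted p = 8.56e-05). Differences of the steps were seen for 1 ribosome biogenesis and 3 (range 1 to 5) p53 target genes higher and 6 and 4 (range 1 to 9) lower in TKO.

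In the list of serine, one-carbon and amino acid response genes, 7 (range 2 to 6) of 30 rose and 4 (range 2 to 3) fell, and Slc7a11, the cystine transporter, changed most, at 38.7 and 34.5 CPM at TKO D2, against 9.09 and 11.2 CPM at TKO D0 (1.86 ± 0.14). In the unfolded protein and heat shock list, 7 (range 4 to 7) of 22 rose and 8 (range 5 to 7) fell. Hspa1a, an inducible chaperone with 65.4% shared 31-mers, had 5.66 and 4.93 CPM, against 2.02 and 2.12 CPM. The counts of both lists stand beside 26.6% of all genes that rose and 26.9% that fell. Steps lower in TKO than in WT were found for 4 (range 1 to 17) and 5 (range 2 to 3) genes of these lists. Without WT D0 replicate 1 the amino acid response list had 12 higher and 4 lower genes, and without WT D0 replicate 2 it had 17 lower ones. Interferon response genes fell in 11 and rose in 5 of 29 cases, mostly at low levels: Zbp1, a sensor of Z-form nucleic acids, had 0.103 and 0.1203 CPM at TKO D2, against 0.662 and 0.696 CPM at TKO D0. In 7 of them the step was higher in TKO than in WT, in 1 lower.

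**Figure D4:**
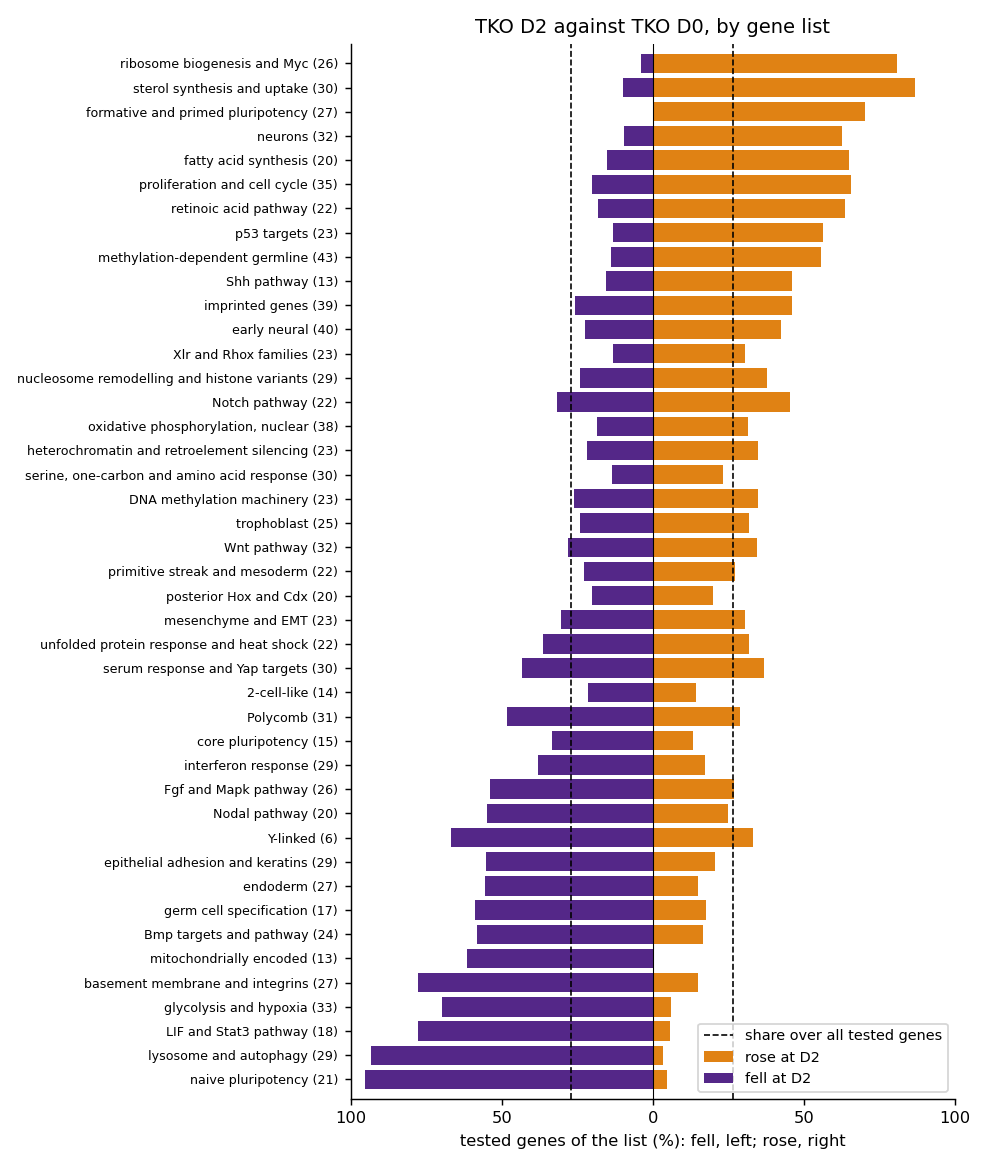
Share of the tested genes of each of the 43 lists that rose (right of 0) or fell (left of 0) from D0 to D2 in TKO, in percent, with the number of tested genes beside each name. Dashed lines mark the shares over all tested genes, 26.6% up and 26.9% down, and sterol, formative and ribosome biogenesis genes reach furthest to the right, naive and lysosome genes furthest to the left.

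Adhesion genes of epithelia fell more often than they rose, 16 against 6 of 29. Krt19, a simple epithelial keratin, had 1.03 and 1.203 CPM at TKO D2, against 9.86 and 9.04 CPM at TKO D0 (-3.09 ± 0.21). Dsg2, a desmosomal cadherin, had 17.8 and 16.2 CPM, against 84.3 and 84.6 CPM (-2.31 ± 0.14). Grhl3, a factor of surface ectoderm, had 6.34 and 5.81 CPM, against 30.4 and 29.7 CPM. Both D2 libraries were below both D0 libraries for each. Against WT, 7 genes had a higher and 2 (range 1 to 4) a lower step in TKO. Dsc2, a desmocollin, was first among them with -0.032 ± 0.18 in TKO, which did not pass, and -1.67 in WT (difference 1.63 ± 0.26, adjusted p = 4.06e-04). In the mesenchyme list 7 of 23 genes rose and 7 fell, near the shares of all genes. Dcn, the proteoglycan decorin, had 3.02 and 3.17 CPM at TKO D2, against 0.104 and 0 CPM at TKO D0, a ratio of counts of 57.6 with a 95% counting interval of 19.4 to 282. Cdh2, N-cadherin, had 45.02 and 47.8 CPM, against 12.7 and 12.8 CPM (1.86 ± 0.063). The 5 (range 3 to 6) mesenchyme genes with a difference between the steps were all higher in TKO.

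Basement membrane and integrin genes fell, 21 of 27 with 4 (range 2 to 4) higher. Lama4, a laminin chain, had 0.377 and 0.762 CPM at TKO D2, against 4.08 and 4.43 CPM at TKO D0. Nid1, which links laminin to collagen IV, had 54.5 and 60.9 CPM, against 247 and 279 CPM (-2.19 ± 0.13). Hspg2, the proteoglycan perlecan, had 214 and 245 CPM, against 877 and 1015 CPM (-2.05 ± 0.12). Lama1, a laminin chain that parietal endoderm makes in quantity, had 256.0 and 335 CPM at TKO D2 and 1074 and 1227 CPM at TKO D0, against 17.9 and 18.5 CPM at WT D2 and 99.6 and 132 CPM at WT D0. It fell in both genotypes and was higher in TKO at either day. A higher step than in WT was seen for 5 (range 3 to 6) genes and a lower one for 3, with Lama3, an epithelial laminin chain, first (-1.78 in TKO, 0.21 in WT, difference -1.98 ± 0.47, adjusted p = 0.00673).

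Endoderm genes other than laminins were also present in TKO at D0, and more of them fell than rose. The summed endoderm markers given above overlapped between TKO D2 and TKO D0. Of 27 tested genes, 15 fell and 4 (range 1 to 4) rose. Sox7, a factor of extraembryonic endoderm, had 3.02 and 2.77 CPM at TKO D2, against 10.9 and 13.5 CPM at TKO D0 (-2.07 ± 0.38). Sox17, a factor of all endoderm, had 7.47 and 10.1 CPM at TKO D2 and 26.2 and 25.2 CPM at TKO D0, against 0.271 and 0.699 CPM at WT D2 and 0.702 and 0.747 CPM at WT D0. Apoe, an apolipoprotein, had 282 and 271 CPM at TKO D2, against 1068 and 1035 CPM at TKO D0 (-1.93 ± 0.16). Apoe was not higher in TKO than in WT, with 306 and 310 CPM at WT D2 and 1283 and 1437 CPM at WT D0. Sox17 was higher in each TKO library than in any WT library, at both days. Ttr, transthyretin, rose to 1.41 and 1.52 CPM at TKO D2, against 0.627 and 0.146 CPM at TKO D0, a call lost without TKO D0 replicate 2 (adjusted p = 0.116). Of the endoderm genes, 2 (range 1 to 4) had a higher and 4 a lower step in TKO than in WT. Pga5, a pepsinogen gene, had 22.5 and 29.1 CPM at TKO D2 and 13.8 and 11.9 CPM at TKO D0, against 0.6197 and 0.699 CPM at WT D2 and 13.1 and 15.3 CPM at WT D0. Its difference of 5.41 ± 0.53 (adjusted p = 3.66e-06) was the highest among the genes named by rule for the difference. Foxa2, a factor of definitive endoderm and floor plate, went down in TKO (-1.25 ± 0.18) and had 1.43 in WT (difference -2.69 ± 0.38, adjusted p = 1.30e-04).

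Early neural genes rose more often than they fell. Of 40 tested genes, 17 rose and 9 fell, with a median of 0.73. Fabp7, a fatty acid carrier of radial glia, had 0.7200 and 0.722 CPM at TKO D2, against 0 CPM in both libraries at TKO D0, at least 13.5-fold higher against the floor of 3 counts. Irx3, a homeobox gene of the neural plate, had 30.7 and 33.2 CPM, against 0.662 and 0.988 CPM (5.27 ± 0.16, adjusted p = 1.00e-13). Sox1, the earliest specific factor of neural progenitors, had 97.8 and 98.9 CPM, against 55.6 and 55.4 CPM (0.83 ± 0.096, adjusted p = 1.17e-06). All 3 were higher in both D2 libraries. The step of Sox1 was lower in TKO than in WT (difference -0.46 ± 0.14, adjusted p = 0.0272). That call was lost in a fit of the compared groups alone (adjusted p = 0.0816), and the difference was -0.25 without WT D0 replicate 1. Nes, the intermediate filament nestin, had 54.6 and 51.1 CPM at TKO D2 and 30.7 and 28.2 CPM at TKO D0, against 15.995 and 15.8 CPM at WT D2 and 18.1 and 15.6 CPM at WT D0 (difference 0.93 ± 0.14, adjusted p = 1.97e-04). Pax6, a factor of later neuroectoderm, had 44.2 and 41.9 CPM at TKO D2, against 42.6 and 42.1 CPM at TKO D0, and did not pass (0.024 ± 0.065, adjusted p = 0.786). Early neural genes with a higher step in TKO than in WT numbered 7, and those with a lower step 5 (range 3 to 6). Emx2, a forebrain homeobox gene, led them with -0.52 ± 0.28 in TKO, which did not pass, and -3.72 in WT (difference 3.197 ± 0.39, adjusted p = 3.70e-05). Emx2 was low in TKO at both days, with 1.10 and 0.882 CPM at TKO D2 and 1.39 and 1.46 CPM at TKO D0. WT D0 was the highest group, at 6.92 and 9.19 CPM, against 0.465 and 0.728 CPM at WT D2.

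Neuron genes rose in 20 and fell in 3 of 32 cases in TKO, with a median of 1.07, beside 10 and 9 in WT with a median of 0.23. Neurod4, a proneural factor, had 0.377 and 0.601 CPM at TKO D2, against 0 CPM in both libraries at TKO D0, at least 8.97-fold higher against the floor of 3 counts, and was at 0 in all 4 WT libraries. Nhlh1, a factor of newborn neurons, had 1.17 and 0.842 CPM, against 0 and 0.0366 CPM, a ratio of counts of 56.95 with a 95% counting interval of 9.804 to 2290.0. Nhlh2, its relative, had 0.0686 and 0.1604 CPM, against 0 CPM in both libraries, at least 2.07-fold higher. Such values stand for few reads. Both D2 libraries lay above both D0 libraries in each case, but the genes were named for large changes past the threshold, so this adds no support. The call of Nhlh2 was lost without TKO D0 replicate 1, TKO D0 replicate 2 or TKO D2 replicate 2. The steps differed for 10 (range 6 to 11) neuron genes higher and 1 (range 0 to 2) lower in TKO. The 5 neuron markers fixed for the check of cell types summed to 448 and 409 CPM at TKO D2 and 386 and 368 CPM at TKO D0, against 270.1 and 277 CPM at WT D2 and 197 and 252 CPM at WT D0.

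The primitive streak and mesoderm list had 6 (range 3 to 7) of 22 genes higher and 5 (range 3 to 5) lower, beside 1 and 8 in WT, and the 6 (range 2 to 6) genes whose steps differed were all higher in TKO. T, the brachyury factor of the streak, had 0.274 and 0.361 CPM at TKO D2, against 0.488 and 0.403 CPM at TKO D0, and did not pass. Mixl1, a streak homeobox gene, had 0.514 and 0.722 CPM, against 0.0348 and 0.0366 CPM, where a ratio of counts of 17.1 had a 95% counting interval of 4.37 to 147. Posterior Hox and Cdx genes rose in 4 and fell in 4 (range 1 to 3) of 20 cases, with Hoxc4 at 0.0343 and 0.0802 CPM, against 0.348 and 0.512 CPM, and Hoxa3 at 1.71 and 1.56 CPM, against 0.244 and 0.2196 CPM. All 4 Hox and Cdx genes whose steps differed were higher in TKO. Over all genes 26.6% rose and 26.9% fell in TKO, and the streak, Hox and trophoblast lists were near these shares. The trophoblast list had 8 (range 5 to 7) genes higher and 6 lower of 25, beside 1 and 12 in WT. Gcm1, a factor of labyrinth trophoblast, had 0.514 and 0.842 CPM at TKO D2, against 0.0697 and 0 CPM at TKO D0, and Tfap2c, a factor of trophoblast and germ cells, fell to 6.27 and 5.53 CPM, against 25.5 and 24.97 CPM (-2.09 ± 0.12). Its level at WT D0 was higher, at 146 and 138 CPM, and its WT step was -4.004 (difference 1.91 ± 0.17, adjusted p = 1.41e-06). The 5 (range 3 to 5) trophoblast genes whose steps differed were all higher in TKO.

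Germline genes whose promoters are known to be held silent by DNA methylation rose in 24 and fell in 6 (range 3 to 6) of 43 cases in TKO, with a median of 0.73, beside 15 and 7 in WT with a median of 0.20. Tex101, a germ cell surface protein, had 2.19 and 3.33 CPM at TKO D2 and 0.418 and 0.146 CPM at TKO D0, against 0.658 and 0.582 CPM at WT D2 and 0.287 and 0.552 CPM at WT D0 (difference 2.695 ± 0.62, adjusted p = 0.00678). That difference was 3.65 without TKO D0 replicate 1 and did not pass without WT D0 replicate 2 (adjusted p = 0.0725). Slc25a31, the ADP/ATP carrier of sperm, had 3.67 and 3.89 CPM at TKO D2, against 0.975 and 0.732 CPM at TKO D0. Dmrtb1, a factor of spermatogonia, had 5.11 and 5.61 CPM, against 1.04 and 1.46 CPM. These genes gained little in absolute terms in TKO, although both TKO D2 libraries were above both TKO D0 libraries. Dmrtb1 was not silent in WT, with 4.80 and 5.10 CPM at WT D2 and 2.17 and 5.23 CPM at WT D0. At D0 both WT libraries were above both TKO libraries for this gene. Dazl, an RNA-binding protein of germ cells, stood far higher and did not pass: it had 47.1 and 48.3 CPM at TKO D2 and 58.6 and 49.8 CPM at TKO D0, against 5.11 and 3.78 CPM at WT D2 and 5.87 and 4.09 CPM at WT D0. Relative to WT, 12 (range 7 to 11) of these genes had a higher and 3 a lower step. Genes of germ cell specification fell, 10 of 17 with 3 higher, led by Prdm14 and by Tcl1, a coactivator of Akt, at 15.4 and 14.1 CPM, against 132 and 131 CPM (-3.16 ± 0.11). In that list 7 (range 4 to 9) steps were higher and 1 (range 1 to 2) lower in TKO.

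The Xlr and Rhox families of the X chromosome rose in 7 (range 2 to 6) and fell in 3 (range 1 to 2) of 23 cases, led by Rhox2a at 7.65 and 8.298 CPM at TKO D2, against 2.12 and 1.28 CPM at TKO D0, but 97.5% of the 31-mers of Rhox2a are shared with its copies. Imprinted genes rose in 18 and fell in 10 of 39 cases. The counts of both lists stand beside 26.6% of all genes that rose and 26.9% that fell. Calcr, the calcitonin receptor, had 1.75 and 1.72 CPM, against 0.139 and 0.183 CPM (3.401 ± 0.41). Magel2, a paternally expressed gene of the Prader-Willi region, had 14.3 and 17.8 CPM, against 1.95 and 2.34 CPM (2.901 ± 0.21). Both lay higher in the D2 libraries. Igf2, the fetal growth factor, had 12.3 and 14.03 CPM at TKO D2 and 2.16 and 2.09 CPM at TKO D0, against 13.1 and 7.54 CPM at WT D2 and 54.5 and 46.5 CPM at WT D0, and is uncertain with 61.9% shared 31-mers. Its steps ran in opposite directions, 2.63 ± 0.28 in TKO and -2.32 ± 0.20 in WT (difference 4.95 ± 0.34, adjusted p = 9.86e-08). The steps differed for 11 imprinted genes higher and 5 lower in TKO, with Nnat, neuronatin, and Dlk1, a paternally expressed Notch-like protein, next at 2.17 ± 0.31 and 2.02 ± 0.38. The 2-cell-like list had 2 (range 0 to 1) of 14 genes higher and 3 (range 1 to 2) lower, and the Y-linked list 2 higher and 4 (range 2 to 4) lower of 6. In the Xlr and Rhox list 1 (range 0 to 1) step was higher and 1 (range 0 to 1) lower in TKO, and in the Y-linked list 1 (range 0 to 1) was higher.

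Chromatin regulators are set here beside the 26.6% of all genes that rose and the 26.9% that fell. Heterochromatin and retroelement silencing genes rose in 8 and fell in 5 of 23 cases, led by Pphln1, periphilin of the HUSH complex, at 72.2 and 79.98 CPM at TKO D2, against 27.8 and 30.6 CPM at TKO D0 (1.38 ± 0.074). Polycomb genes rose in 9 and fell in 15 of 31 cases. Cbx2, a chromodomain subunit of Polycomb repressive complex 1, rose to 56.4 and 50.3 CPM at TKO D2, against 24.7 and 27.02 CPM at TKO D0. Remodelling and histone variant genes rose in 11 and fell in 7 of 29 cases, with Smarcd3, a BAF complex subunit, at 5.01 and 4.05 CPM, against 15.3 and 15.9 CPM (-1.78 ± 0.14). In these 3 lists the steps differed for 1, 2 and 4 (range 4 to 7) genes higher and 3 (range 1 to 4), 6 (range 2 to 8) and 7 (range 4 to 7) lower in TKO. Chd3, a remodelling ATPase of the NuRD family, had the largest of these differences, with 0.13 ± 0.11 in TKO and -1.42 in WT (difference 1.54 ± 0.15, adjusted p = 3.70e-06). Chd3 had 27.3 and 29.6 CPM at TKO D2 and 25.5 and 26.6 CPM at TKO D0. In WT it had 26.3 and 27.5 CPM at D2 and 61.3 and 82.2 CPM at D0, so the genotypes were close at D2.

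Outside the lists, the lowest genes of the step among those with at least 10 CPM in a group were led by Ly6g6e, a cell surface protein gene, at 0.171 and 0.0802 CPM at TKO D2, against 26.6 and 23.2 CPM at TKO D0 (-7.55 ± 0.39, or -8.21 without TKO D2 replicate 1). Mras, a Ras-related GTPase, had 1.17 and 0.641 CPM, against 45.1 and 45.6 CPM (-5.61 ± 0.19). A2m, alpha-2-macroglobulin, had 1.44 and 0.962 CPM, against 57.3 and 61.8 CPM (-5.61 ± 0.52). In these genes the signal at D2 was close to 0. Log2 fold changes further down were -5.58 for Ndufa4l2, a hypoxia-induced mitochondrial protein, -5.31 for Grin1, a glutamate receptor subunit, and -5.06 for Slc15a1, a peptide transporter. The connexin gene Gjb5 stood at -4.91, Msc, a basic helix-loop-helix repressor, at -4.91 (-5.78 without TKO D2 replicate 1) and Lrrc34 at -4.85, and Notch4 and Bcl3 were also among the 12 lowest. After Wnt8a the highest was Pcdh18, a protocadherin, at 9.98 and 11.2 CPM at TKO D2, against 0.0697 and 0.1098 CPM at TKO D0 (6.82 ± 0.27). Btbd17 had 24.7 and 23.4 CPM, against 0.244 and 0.2196 CPM (6.67 ± 0.28). These genes were nearly absent at D0. Next came Alox15, a lipoxygenase, at a log2 fold change of 5.64, Ccno, a cyclin-like gene of multiciliated cells, at 5.52, and Foxi3, a forkhead factor of placodes, at 5.44. Ptn, the growth factor pleiotrophin, stood at 5.27, Vrtn, a regulator of vertebral number, at 5.22 and Enpp2, autotaxin, at 5.08, and Irx3 and Hes3 were also among the 12 highest.

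By the same rule for the difference of the steps, the lowest after Cyp26a1 were Hopx, a homeodomain-only cofactor, Dcdc2a, a doublecortin domain gene, Sox3, and Insm1, a zinc finger factor of neuroendocrine progenitors. Hopx had 3.26 and 3.53 CPM at TKO D2 and 10.1 and 11.3 CPM at TKO D0, against 3.91 and 3.32 CPM at WT D2 and 0.606 and 0.747 CPM at WT D0 (difference -4.06 ± 0.32, adjusted p = 4.67e-07). Dcdc2a had 13.3 and 12.6 CPM at TKO D2 and 29.5 and 27.6 CPM at TKO D0, against 0.232 and 0.437 CPM at WT D2 and 0.128 and 0.0325 CPM at WT D0 (difference -3.195 ± 0.67, adjusted p = 0.00318). Both stood higher in TKO than in WT at D0, and fell in TKO. The difference of Dcdc2a was -4.401 without WT D0 replicate 1 and -2.56 without WT D0 replicate 2 and did not pass without WT D2 replicate 2 (adjusted p = 0.0814), and its step did not pass with counts from length-scaled TPM (adjusted p = 0.0607). Wt1, the Wilms tumour factor, rose in both genotypes, to 53.01 and 52.2 CPM at TKO D2, against 3.06 and 3.81 CPM at TKO D0, and to 67.1 and 64.6 CPM at WT D2, against 0.925 and 0.747 CPM at WT D0 (difference -2.35 ± 0.44, adjusted p = 0.00141). On the other side, Pygl, liver glycogen phosphorylase, had 1.85 and 1.604 CPM at TKO D2 and 2.19 and 2.09 CPM at TKO D0, against 0.891 and 0.699 CPM at WT D2 and 20.3 and 9.88 CPM at WT D0 (difference 3.95 ± 0.53, adjusted p = 8.90e-05). Kif1a, a kinesin of axonal transport, had 8.503 and 10.9 CPM at TKO D2 and 1.11 and 1.06 CPM at TKO D0, against 14.5 and 11.3 CPM at WT D2 and 19.4 and 15.5 CPM at WT D0 (difference 3.59 ± 0.27, adjusted p = 2.89e-07). Without WT D0 replicate 1 the difference of Pygl was 3.35. Pygl was low in TKO at both days, and Kif1a was low in TKO only at D0.

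Over D0, D2, D4, D6 and D8, the mean level of Klf4 in TKO was 435, 18.3, 8.42, 8.88 and 36.2 CPM and that of Esrrb was 919, 58.7, 3.16, 18.4 and 51.7 CPM. Nanog had means of 443, 56.7, 39.8, 25.95 and 80.96 CPM. All 3 stayed under the D0 mean on each later day. Fgf5 had means of 0.249, 8.69, 1.09, 2.46 and 31.3 CPM over the same days, and Pou3f1 had 30.6, 221, 24.8, 10.7 and 64.7 CPM. Wnt8a had 0.0522, 20.2, 50.04, 0.375 and 4.22 CPM. Hmgcs1 had means of 133, 708, 1031, 493 and 513 CPM and Sox1 had 55.5, 98.3, 499, 254.7 and 121 CPM. These are levels of 2 libraries a day, and no test was made between the later days.

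**Figure D5:**
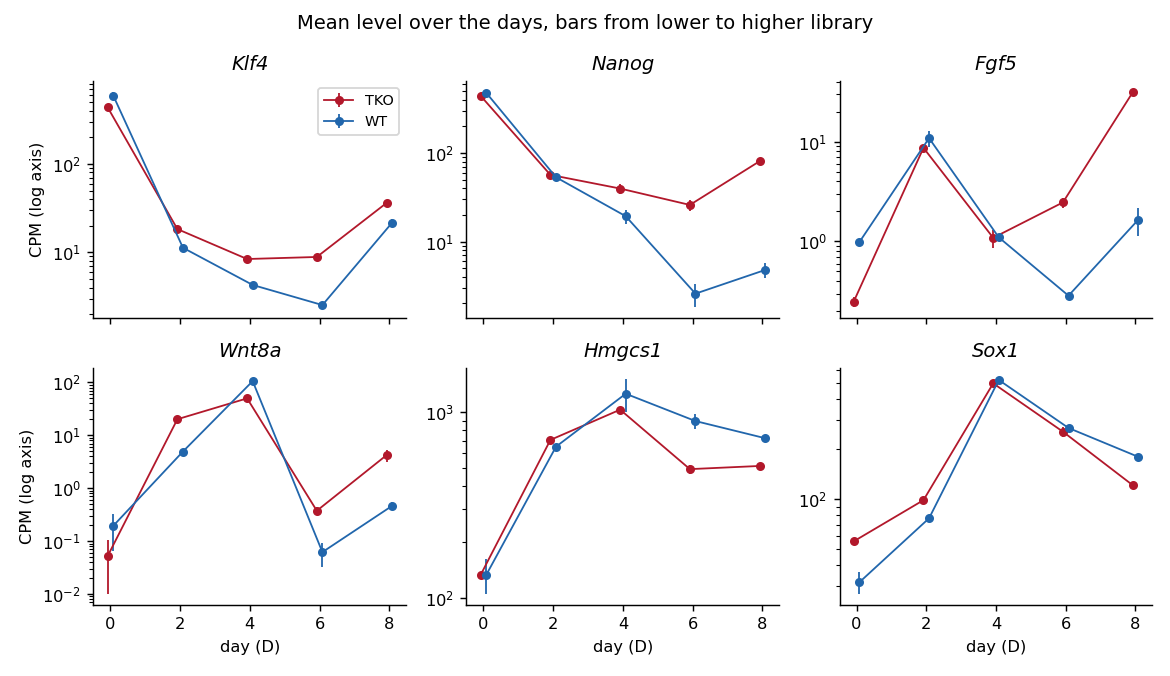
Mean CPM (log axis) of 6 genes in TKO and WT on D0, D2, D4, D6 and D8, with bars from the lower to the higher of 2 libraries and a library at 0 drawn at the foot of the Wnt8a bar. In TKO, Klf4 and Nanog stand lower at D2 and on every later day than at D0, and Fgf5, Wnt8a, Hmgcs1 and Sox1 stand higher at D2 than at D0.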

How the data were processed

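RNA of mouse embryonic stem cells and their neural derivatives was sequenced in 20 libraries, 2 for each of 10 groups, from stranded mRNA kits. The deposited files give estimated counts and TPM per transcript, per the file headers. Trim Galore 0.6.2 and kallisto are named in the submitters' processing notes, with builds GRCm38 and mm10 and without the transcript set. Here, transcripts were assigned to genes by their GENCODE M21 identifiers (116728 of 119414 matched, and the other 2686 held between 0.943% and 1.10% of the counts), summed per gene (35975 genes) and rounded. Genes were filtered with filterByExpr over the 10 groups, which left 18555, and were tested with the quasi-likelihood test of edgeR 4.0.16 after TMM scaling in 1 fit over all 20 libraries. Such a sum over transcripts can change when transcripts of different length are used, and counts from length-scaled TPM, made from the deposited TPM, were tried for that reason. DESeq2 1.42.0 was tried as another test. The 43 gene lists and the members were chosen with earlier results of these data known.

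The text names 28 genes chosen for the exit from pluripotency. Leading members of each list past the threshold are named by size of change, up to 5 for the step and 3 for the difference. Also named are the 12 highest and 12 lowest changes of the TKO step and up to 10 on each side for the difference. These ranked genes passed the threshold, are protein-coding and carry no predicted or clone name. They have at least 10 CPM in a group and under 10% shared 31-mers. For the step, both libraries of a day also had to lie above both of the other day. Groups without overlap are therefore in part a result of the choice of genes. Library totals ran from 26015282 to 38074768 counts. Intervals of count ratios cover counting error only. The test was checked on simulated data. Of 1128 listed entries, 1026 were tested, and a few of the genes that the rule names are not reported here.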

Additional observations from a re-analysis of the deposited data

Results flagged for a closer look

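Each of the following values differed between the genotypes by the test of the difference itself, the step in TKO minus the step in WT in the same edgeR fit, at a Benjamini-Hochberg adjusted p under 0.05. They are log2 differences, and a positive value means a step further up, or less far down, in TKO. Over all genes the test passed for 3421. The weaker points of single values, such as a call that 1 library decides, stand beside them in the report.

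Among pluripotency genes the difference was 1.15 for Klf4, 1.15 for Tbx3, -1.396 for Dppa5a and -1.59 for Foxd3. In the formative list it was 3.82 for Wnt8a and 1.64 for Fgf5, against -1.22 for Pou3f1, -2.22 for Lef1 and -2.49 for Sox3. Genes of the DNA methylation list with a difference had -1.16 for Dnmt3a, -2.03 for Dnmt3b, -0.78 for Tet1, -0.49 for Tet2 and -1.94 for Gadd45g.

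Among signalling genes the values were 1.18 for Id1, 1.33 for Id2, 1.54 for Id4 and 3.55 for Lefty1. In the Fgf, Wnt and Notch pathways they were 2.39 for Fgf8, 3.41 for Wnt7b, 2.101 for Lfng and 1.96 for Dll3. Around retinoic acid, Stra8 stood at 4.12 and Cyp26a1 at -4.605. In the serum response and Yap list Acta2, smooth muscle actin, had 1.88.

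Metabolic and growth genes with a difference were Scd1 at 1.22, Gaa at 1.39, Pygl at 3.95, Cox7a2 at -0.83, Uqcrq at -0.75, Ccnd2 at -1.59 and Perp at 1.54. Lineage genes on the higher side were Emx2 at 3.197, Nes at 0.93, Tfap2c at 1.91, Pga5 at 5.41, Dsc2 at 1.63, Kif1a at 3.59 and Tex101 at 2.695. On the lower side were Foxa2 at -2.69, Lama3 at -1.98, Hopx at -4.06, Dcdc2a at -3.195 and Wt1 at -2.35. The imprinted genes Igf2, Nnat and Dlk1 had 4.95, 2.17 and 2.02, and the remodeller Chd3 had 1.54.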

How the results depend on the processing

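The TKO step called 9937 genes, and between 7988 and 10288 under each of 9 other settings: other scaling, no filter, the replicate block, length-scaled TPM, DESeq2, fewer libraries or genes in the fit, and an adjusted p under 0.01. With a change of at least 2-fold in addition it called 3365, 1704 higher and 1661 lower, and the WT step called 3439, 1287 higher and 2152 lower. Leaving out 1 library gave between 8373 and 8850 genes in the TKO step, with the lone library of a group assumed to vary like the other groups. For the difference of the steps the count of 3421 became 1104 with at least 2-fold, 871 higher and 233 lower, and 1700 at an adjusted p under 0.01, 962 higher and 738 lower. Counts from length-scaled TPM left 1050 lower genes. Leaving out 1 library gave between 2122 and 3894 genes, between 875 and 1841 of them lower. In these counts and in length-scaled TPM the cause was not tested.

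Of the values of list counts under other settings, 1065 of 1204 were within 1.5-fold of the count reported for the TKO step. Of the values of the 176 named genes, 2235 kept direction and side of the threshold in the TKO step, 31 no longer passed and 3 passed newly, against 2771, 133 and 62 for the difference, and the difference of Egln3 ran between -1.31 and 0.71 with 1 library left out and so reversed without WT D0 replicate 1, for which the cause was not tested. The labels number the replicates of every group without saying that a number marks a shared batch. Deviations of same-numbered libraries from their group means had a correlation of 0.239 between TKO D2 and TKO D0, 0.229 between TKO D4 and TKO D2, -0.0141 between WT D2 and WT D0 and -0.21 between TKO D2 and WT D2. With the replicate block the counts were 9894 for the TKO step and 3369 for the difference. It changed the count of calls by little, and 2 libraries per group limit what small changes the test can find.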

Other observations

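Groups of genes that share a name stem, chosen after their values were seen, moved together in the TKO step by small amounts. Of 20 genes of the 19S cap of the proteasome, which unfolds proteins for destruction, 17 rose with a median log2 fold change of 0.32, and of 19 genes of its 20S core 14 rose and 1 fell, with a median of 0.37. Of 49 genes of the large subunit of the mitochondrial ribosome 35 rose and 1 fell, and of 29 genes of the small subunit 17 rose, with medians of 0.28 and 0.29. Import of proteins into mitochondria rose in 17 of 24 genes, RNA polymerase subunits in 21 of 28, and the Rrp, Utp and Nol genes of ribosome assembly in 24 of 28. In WT the medians were higher, at 0.58 for the 19S cap, 0.53 for the large mitochondrial subunit and 0.75 for the import genes. These families are read here by counts, beside the 26.6% of all genes that rose.

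Genes of the cytoplasmic ribosome fell by little: 27 of 44 with the stem Rps fell and 6 rose, and 20 of 51 with the stem Rpl fell and 3 rose, with medians of -0.23 and -0.12. These stems also take in kinase and pseudogene-like copies. Of 17 Krueppel-like factor genes, 11 fell and 2 rose, with Klf4 at the low end at -4.57. Of 9 interferon regulatory factors, 7 fell, of 10 oxysterol-binding genes 7, and of 18 histone lysine demethylases 11, while 4 of the last rose, beside the 26.9% of all genes that fell. Protocadherins outside the clusters went the other way, with 7 of 10 higher, 1 lower and a median of 2.23, beside 1.503 in WT, and Pcdh7 at the high end at 6.91.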
